A study of Homo sapiens with 18 samples.

Results

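In the lists of reproducible QKI peaks of this study, 460 footprints held a day 8 peak and no day 0 peak. A footprint here is the stretch of RNA obtained by joining the authors' merged peaks of day 0, day 4 and day 8 wherever they overlapped or touched on the same chromosome and strand. The 3 lists gave 7018 footprints, of which 1196 held a day 8 peak. The 460 were chosen by the merged peak lists themselves, for a day 8 peak and no day 0 peak, so their day 8 and day 0 values are given as a description with no test. Of these, 412 were in the day 8 list alone and 48 also held a day 4 peak. The other 736 day 8 footprints also held a day 0 peak and are called shared footprints below.

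The cells were HUES6, an established human embryonic stem cell line. Day 0 cells were pluripotent and were cultured overnight in growth medium before collection, day 4 cells were labelled cardiac progenitors, and day 8 cells were labelled cardiomyocytes and were collected after beating had been seen. Cells of the later days had received 1.5 uM CHIR, which activates Wnt signalling, together with 1.5 ng/mL BMP4, and then C59, which blocks Wnt secretion. The labels give the C59 dose as 100 nM up to day 4 and as 100 mM in the medium that followed, and which value is meant for the later medium was not settled here. The labels name no genetic alteration, and all groups came from the same line. Each day had 3 immunoprecipitation (IP) libraries and 3 size-matched inputs, the latter entering only through the authors' scores. Whether a day's replicates were separate cultures is not stated in the labels, and p-values therefore measure a spread that may be technical.

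QKI (quaking), a STAR-family protein, binds RNA at short ACUAA-containing motifs in introns and 3′ untranslated regions. It is known for regulating alternative splicing, RNA stability and circular RNA formation, and it takes part in the muscle splicing programme. In eCLIP, ultraviolet light (400 mJ/cm2 here) links proteins to RNA in living cells, the protein is immunoprecipitated, and the RNA pieces it carries are sequenced and scored against an input library of the same size range.

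Each IP library had its own deposited list of clusters with a log2 fold of IP over input and a −log10 p-value, both the authors' values. A peak was called passing where the fold was at least 4 (log2 fold of at least 2) and p was at most 0.001. Libraries listed 102085 to 187962 clusters at day 0, 63319 to 99552 at day 4 and 52462 to 62897 at day 8, and passing peaks numbered 12695 to 15508, 3030 to 7775 and 3726 to 10966. The deposited lists carry no read numbers, so depth is unknown. A peak reports binding over input and no RNA level, so more QKI on a transcript, more transcript, and more cells that carry the transcript cannot be told apart. Positions are on hg19 and are not assigned to genes, exons or introns, since an annotation of that build was not used here. Marker genes of the labelled cell types were therefore not examined.

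The 460 footprints were called at day 8 by nearly every library. A passing peak was found under 458 of them in day 8 replicate 1, 441 in replicate 2 and 452 in replicate 3. In all, 438 (95.2%; Wilson 95% interval 92.9 to 96.8, covering counting error only) passed in 3 of 3 day 8 libraries, beside 22.3% of all footprints; the rule used these libraries. The median log2 fold of the passing peaks was 4.50, 4.25 and 5.01 in the 3 libraries. The median range across the 3 libraries was 1.32 log2 units, and 314 footprints spanned more than 1 unit and 95 more than 2. Replicate 3 gave the highest value for 256 of the 460 and replicate 2 the lowest for 261, so the libraries differed in level. That they called the same positions follows from the merged list, which kept peaks reproducible across these 3 libraries.

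Passing day 0 peaks were missing under most of the footprints, but absence from the merged day 0 list was not always absence of signal in single libraries. Passing peaks were found under 101 footprints in day 0 replicate 1, 77 in replicate 2 and 64 in replicate 3, which is 22.0%, 16.7% and 13.9%. No day 0 library held a passing peak under 296 of the 460 (64.3%; Wilson 95% interval 59.9 to 68.6), beside 4.59% of all footprints. The remaining 164 (35.7%) passed in at least 1 day 0 library, with 93 in 1, 64 in 2 and 7 in 3. Weaker clusters of any fold were absent from all 3 day 0 libraries for 175 footprints (38.0%), beside 2.66% of all footprints, and present in all 3 for 122. The rule required no merged day 0 peak, so nothing is read from these background shares. Passing at day 8 in 3 of 3 libraries and at day 0 in 0 of 3 was met by 282 of the 460 (61.3%), beside 4.05% of all footprints.

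**Figure D1:**
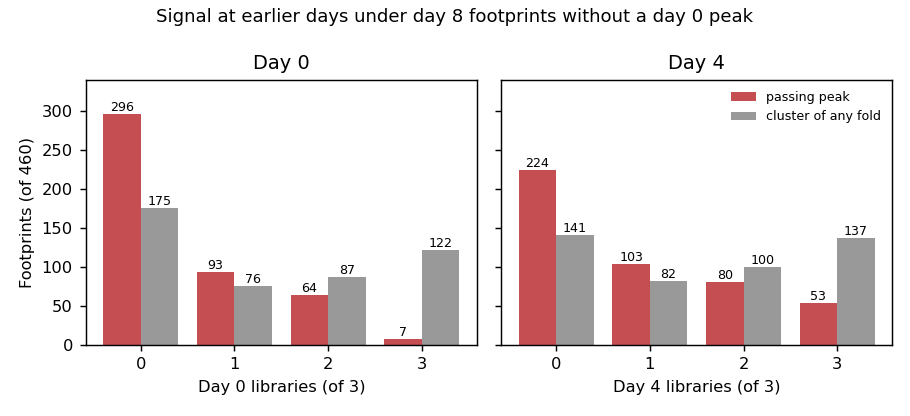
Number of the 460 footprints (y axis) by the number of day 0 libraries (left) or day 4 libraries (right) that held a passing peak or a cluster of any fold (x axis, of 3 libraries). At day 0, 296 had no passing peak in any library and 175 no cluster; at day 4, 224 had no passing peak.

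The 460 footprints had a median width of 75 nt (quartiles 55 and 100, range 9 to 352). The median was 106.5 nt (82 and 154) for shared footprints, 78 nt for footprints of day 0 alone and 81 nt for all footprints. A single day 8 peak made up 394 of the 460, 66 held more than 1, and the most was 5. Their highest day 8 log2 fold in the merged list had a median of 4.61 (quartiles 3.99 and 5.32, range 2.02 to 7.38), against 5.17 (4.49 and 5.96) in shared footprints. The minus strand carried 259 and the plus strand 201. Width and fold thus differed between the 460 and shared footprints, and their part in the day 4 comparison below was not tested. A shared footprint always joins a day 8 and a day 0 peak, so a greater width is favoured by the joining itself.

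The 10 strongest footprints, taken as the highest merged day 8 log2 fold with 1 per locus among those passing in 3 of 3 day 8 libraries, had log2 folds of 6.41 to 7.38. The strongest was a minus-strand footprint of chromosome 2 (179622092 to 179622198). Its library values were 6.52, 6.84 and 7.82 at day 8 in replicates 1 to 3 and 5.44 in day 4 replicate 3, with no cluster at day 0 or in the other day 4 libraries. It was high in every day 8 library and listed in 1 of the 6 earlier ones. The second, on the plus strand of chromosome 7 (99194439 to 99194527, merged log2 fold 7.31), had 7.69, 5.76 and 8.27 at day 8, but also 5.71 and 5.70 in day 0 replicates 1 and 2 and no cluster at day 4. Day 8 replicates 1 and 3 were above both day 0 values, while day 8 replicate 2 lay next to them. A footprint on the plus strand of chromosome 12 (131520767 to 131520807, 7.00) had 7.00, 6.33 and 7.30 at day 8, 5.42 in day 4 replicate 2 and 5.23 in day 0 replicate 1.

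Day 4 signal was present under most of the rest. On the minus strand of chromosome 4, the footprint at 96331731 to 96331814 (6.85) had log2 folds of 6.37, 6.44 and 7.75 at day 8, and 5.87, 7.63 and 4.39 at day 4, so the days overlapped. Its only day 0 cluster was 2.71, in replicate 3. A footprint on the plus strand of chromosome 13 (98017239 to 98017426, 6.67) had 6.58, 5.95 and 7.33 at day 8 and 4.29, 6.11 and 3.90 at day 4, with 2.91 and 3.02 in day 0 replicates 1 and 2. By contrast, the one on the minus strand of chromosome 4 at 47637060 to 47637227 (6.65) had 5.87, 6.68 and 7.40 at day 8 and no cluster in any library of day 0 or day 4. The remaining 4 lay on chromosomes 10 (71666986 to 71667031, 6.76), 6 (73550805 to 73550931, 6.47), 15 (89878339 to 89878372, 6.44) and 2 (163549974 to 163550144, 6.41).

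**Figure D2:**
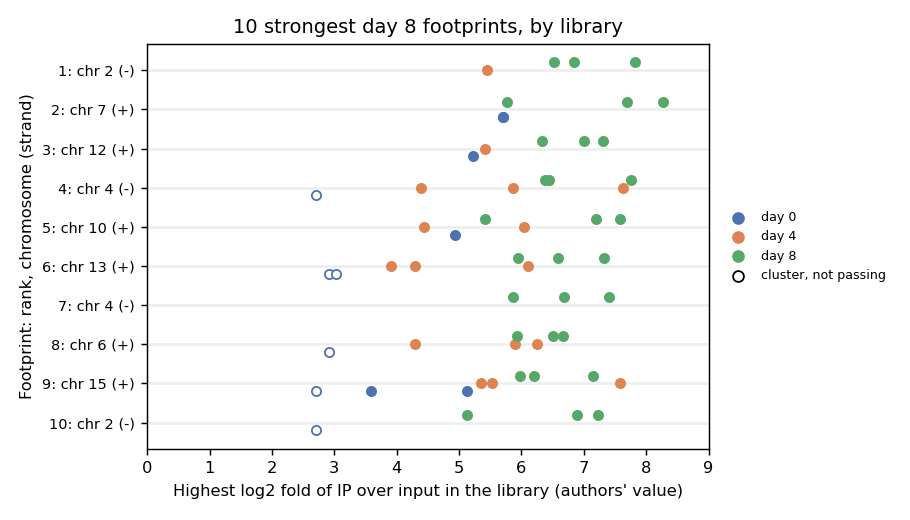
Highest authors' log2 fold of IP over input (x axis) in each library for the 10 strongest footprints, ranked from the top by merged day 8 value, with filled points for passing peaks and open points for weaker clusters. Day 8 points lie between 5.12 and 8.27, and only the footprint ranked 7, on chromosome 4, has no earlier point at all.

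The footprints were unevenly spread over the chromosomes. Grouping same-strand footprints that lay at most 20 kb apart gave 3755 loci, and 272 of them held at least 1 of the 460. Of these, 192 held 1, 45 held 2 and 35 held 3 or more. The 10 fullest loci held 90, or 19.6% (Wilson 95% interval 16.2 to 23.4). Other footprints lay together too, as the 7018 lay in 3755 loci and the 5564 of day 0 alone in 3214. The share in the 10 fullest loci was not taken for them, so nothing is read from the 19.6%. Chromosome 2 carried 106 of the 460 (23.0%), which was 70.2% of its 151 day 8 footprints, and chromosome 10 carried 39, or 52% of its 75. Of the 7018 footprints of any day, chromosome 2 held 556 and chromosome 10 held 303. Over the genome, 38.5% of the day 8 footprints lacked a day 0 peak. The lowest shares were 6.25% of 16 day 8 footprints on chromosome 16 and 7.41% of 27 on chromosome 19. Footprints in a locus may share a transcript, so they are not independent measurements.

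Joining the 460 over gaps of up to 100 kb on the same strand, a span nearer to that of a long gene, gave 227 stretches, of which 150 held 1 footprint and 29 held 4 or more. Those 29 held 207 of the 460. In 10 of the 29, no day 0 library had a passing peak under any of the footprints.

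**Figure D3:**
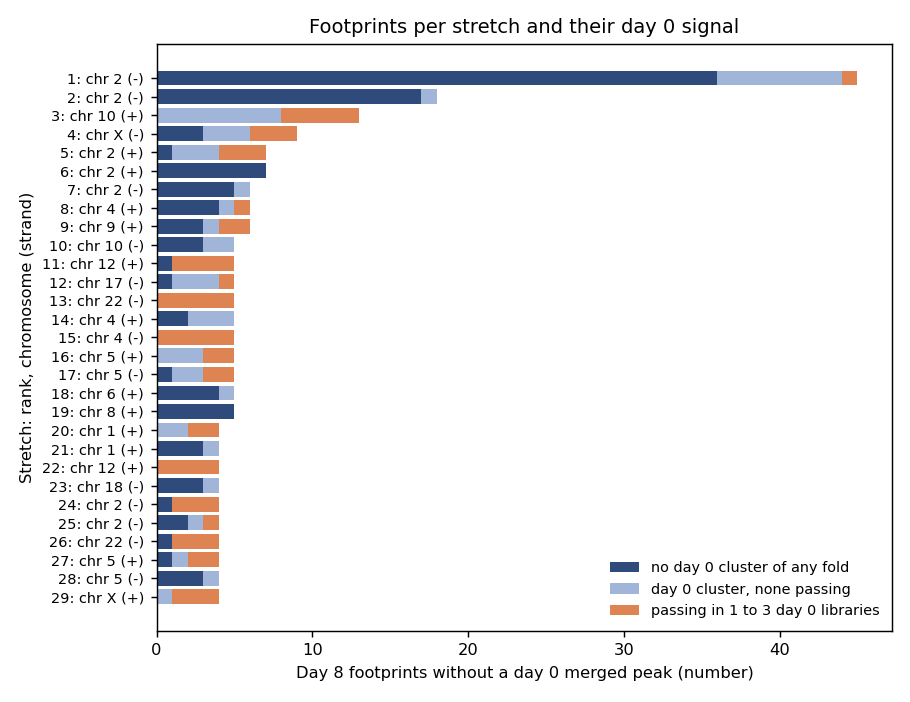
Number of footprints (x axis) in each of the 29 stretches with 4 or more, ranked by size and labelled by chromosome and strand (y axis), divided by their day 0 signal. The first stretch holds 45 footprints, 36 of them with no day 0 cluster of any fold, and the second 18, 17 of them with none.

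The fullest stretch lay on the minus strand of chromosome 2 (179461044 to 179701973), spanned 240.9 kb and held 45 footprints. No footprint with a day 0 peak lay between them. Of the 45, 36 had no day 0 cluster of any fold, 44 had no passing day 0 peak, and all 45 passed in every day 8 library. At day 4, 8, 27 and 21 of the 45 passed in replicates 1, 2 and 3, and 5 held a merged day 4 peak. Passing peaks of the whole stretch numbered 1, 0 and 0 in the day 0 libraries, 10, 46 and 25 at day 4, and 100, 85 and 151 at day 8. Clusters of any fold numbered 13 in each day 0 library, 110, 143 and 148 at day 4 and 246, 185 and 176 at day 8. Every day 8 library was above every day 4 library on both measures, and every day 4 library above every day 0 library. The stretch was picked for its footprints with a day 8 peak and no day 0 peak. The order of day 8 over day 0 therefore follows from the choice. The same choice favours day 8 over day 4 and day 4 over day 0, so the whole order is a description only. The log2 folds of the 45 ranged from 2.68 to 7.38 with a median of 4.40, and 16 of them lay within 10 kb.

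**Figure D4:**
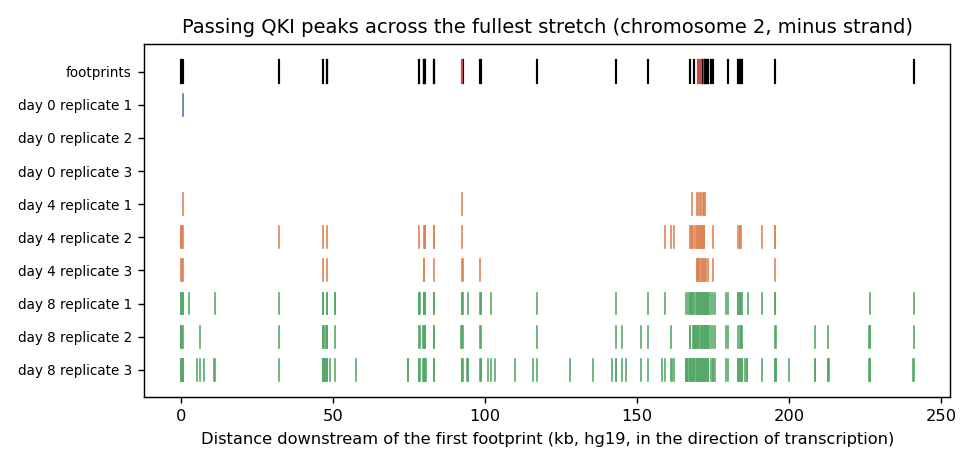
Passing peaks (ticks) of each library across the fullest stretch, by distance from its first footprint in the direction of transcription (x axis, kb); the top row shows the 45 footprints, in red where a merged day 4 peak was present. Day 0 libraries hold 1, 0 and 0 passing peaks and day 8 libraries 100, 85 and 151, with a dense group in the right part of the stretch.

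The second stretch lay on the minus strand of chromosome 2 (40353767 to 40726555), over 372.8 kb, and held 18 footprints. All 18 passed in each day 8 library and in no library of day 0 or day 4. Clusters of any fold were found 0, 0 and 1 times across the stretch in the day 0 libraries and 1, 3 and 1 times at day 4, against 308, 404 and 378 at day 8. Of the 29 stretches, it held the most footprints among those with none passing before day 8. Without the 2 fullest stretches, 43 of the 460 remained on chromosome 2.

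Other stretches of the same kind were smaller. On the plus strand of chromosome 2 (88392693 to 88398329), 7 footprints lay within 5.64 kb. No day 0 library listed a cluster there, 3 of the 7 passed in day 4 replicate 2 and none in the other day 4 libraries, and all 7 passed in each day 8 library. A stretch on the minus strand of chromosome 2 (163549844 to 163668845) held 6 footprints that passed in every day 8 library and in none before. The same held for 4 minus-strand footprints of chromosome 18 (3130934 to 3153432) and for 4 plus-strand footprints of chromosome 1 (202497326 to 202542618).

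Of the 11 loci that held 5 or more of the 460, 6 also held footprints with a day 0 peak. One of these, on chromosome 10, is described with its stretch, and 3 of the others, with 6, 6 and 5 of the 460, are given here. The plus-strand locus of chromosome 4 (95502992 to 95541250) held 1, 2 and 2 passing peaks in the day 0 libraries, 0, 2 and 1 at day 4 and 17, 12 and 22 at day 8. The plus-strand locus of chromosome 9 (112704785 to 112714169) held 3, 2 and 1, then 1, 2 and 2, then 8, 10 and 9. In both loci every day 8 library was above every earlier one. The choice of loci by these footprints favours day 8 over both day 0 and day 4, so this is a description only. At the plus-strand locus of chromosome 12 (110784194 to 110787900) the numbers were 11, 10 and 8 at day 0, 1, 2 and 1 at day 4 and 15, 12 and 13 at day 8, lowest at day 4.

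Some stretches had signal from the start. On the plus strand of chromosome 10 (71666336 to 71676846), 13 footprints lay in 10.5 kb beside 3 footprints with a day 0 peak. Of the 13, 0, 2 and 5 passed in the day 0 libraries, 1, 3 and 8 at day 4 and 13, 13 and 13 at day 8. On the minus strand of chromosome 4 (186562496 to 186606115), 5 footprints lay among 7 with a day 0 peak, and all 5 had a passing peak in at least 1 day 0 library. None of the 5 passed in a day 4 library. Passing peaks of that stretch numbered 13, 15 and 12 at day 0, 0, 1 and 0 at day 4 and 26, 22 and 29 at day 8. A minus-strand stretch of chromosome 22 (36148534 to 36202546) was alike at day 0, with 5 footprints, 5 neighbours with a day 0 peak and no footprint free of day 0 passing signal. At day 4, 0, 3 and 1 of its 5 footprints passed. On the minus strand of chromosome X (11563785 to 11648335), 5, 9 and 6 of the 9 footprints passed at day 4 and 2, 0 and 1 at day 0, and 4 held a merged day 4 peak.

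The 193 loci without any footprint that held a day 0 peak contained 309 of the 460 (67.2%), and the 79 loci with such a footprint contained 151. No passing day 0 peak was found under 78.3% of the 309 and 35.8% of the 151, and no day 0 cluster of any fold under 49.5% and 14.6%. The loci were divided by day 0 peaks, so these values are a description. The median day 8 log2 fold was 4.75 and 4.45, and the median width 76 and 73 nt. A merged day 4 peak was present in 12.0% and 7.29%, beside 10.1% of all footprints. Passing in at least 2 of 3 day 4 libraries was found for 31.7% and 23.2%, beside 30.7% of all footprints, so the larger set lay near the background on both measures.

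Few of the footprints lay next to a merged day 0 peak. The nearest day 0 peak on the same strand was within 50 nt for 25 footprints, within 1000 nt for 81 and within 10000 nt for 133, and the median distance was 375321 nt. Where it was within 1000 nt, it lay upstream of the footprint in 49 cases and downstream in 32. The nearest pairs were 1 nt apart (chromosome 12, plus strand, 110787822 to 110787900), 2 nt apart (chromosome 18, plus strand, 34230378 to 34230424) and 3 nt apart (chromosome 1, minus strand, 19669156 to 19669209), and their day 8 log2 folds were 3.44, 4.02 and 3.80. Just on the other side of the rule, a shared footprint of chromosome 6 (minus strand, 31508883 to 31508956) joined a day 8 and a day 0 peak that overlapped by 2 nt, and on chromosomes 20 and 3 by 4 nt. Under the chromosome 18 footprint, day 0 replicates 1 and 2 had log2 folds of 6.23 and 4.02 and the day 8 replicates 4.67, 3.38 and 3.61, so the days overlapped. The farthest footprint, on the plus strand of chromosome 8 (79515232 to 79515379), lay 6908401 nt from a day 0 peak, and its day 8 log2 folds were 4.23, 2.82 and 4.77. No day 0 cluster of any library lay within 5 kb of 88 of the 460.

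The 7 footprints that passed in 3 of 3 day 0 libraries go furthest against the label. The one with the highest day 0 value of a single library lay on the plus strand of chromosome 17 (5144608 to 5144701), with log2 folds of 6.28, 4.95 and 5.29 at day 0, none at day 4, and 6.00, 6.36 and 6.39 at day 8. One on the plus strand of chromosome 1 (52439082 to 52439118) had 3.06, 3.61 and 4.82 at day 0, 7.06, 7.18 and 7.22 at day 4 and 4.68, 5.11 and 7.71 at day 8. At both positions the day 0 and day 8 values overlapped, while the merged lists held a peak at day 8 and none at day 0.

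Neither the presence nor the absence of a day 4 peak was part of the rule, although day 4 peaks took part in joining footprints. Joined from the day 0 and day 8 lists alone, 465 footprints in place of 460 held a day 8 peak and no day 0 peak. Passing peaks were found under 79 of the 460 in day 4 replicate 1, 202 in replicate 2 and 141 in replicate 3, or 17.2%, 43.9% and 30.7%. Replicate 1, the library with the fewest passing peaks, was lowest and replicate 2 highest. Of the 460, 224 passed in no day 4 library (48.7%, beside 46.0% of all footprints), 103 in 1, 80 in 2 and 53 in 3. The 133 that passed in at least 2 (28.9%) stood beside 30.7% of all footprints, so neither share is a result about these footprints. A merged day 4 peak was held by 10.4% (Wilson 95% interval 7.96 to 13.6), beside 10.1% of all footprints.

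Shared footprints passed more often at day 4. In the 3 day 4 libraries 65.9%, 90.9% and 81.7% of the 736 passed, against the 17.2%, 43.9% and 30.7% given above, and the shares did not overlap. The mean was 79.5% ± 12.6 (SD, n = 3) against 30.6% ± 13.4, a difference of -48.9 ± 2.02 percentage points. An exact two-sided sign-flip permutation test over the 3 libraries gave p = 0.25, the smallest value that 3 libraries allow, so the design could not reach 0.05. With footprints joined without day 4 peaks the difference was -48.6 points (exact permutation p = 0.25). A merged day 4 peak was held by 54.5% of shared footprints (Wilson 95% interval 50.9 to 58.1). Against the 5564 footprints of day 0 alone, the difference was 6.80 ± 4.36 points, positive in each library with 1.97 in replicate 2 as the lowest and 10.4 in replicate 1 as the highest (exact sign-flip permutation p = 0.25).

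**Figure D5:**
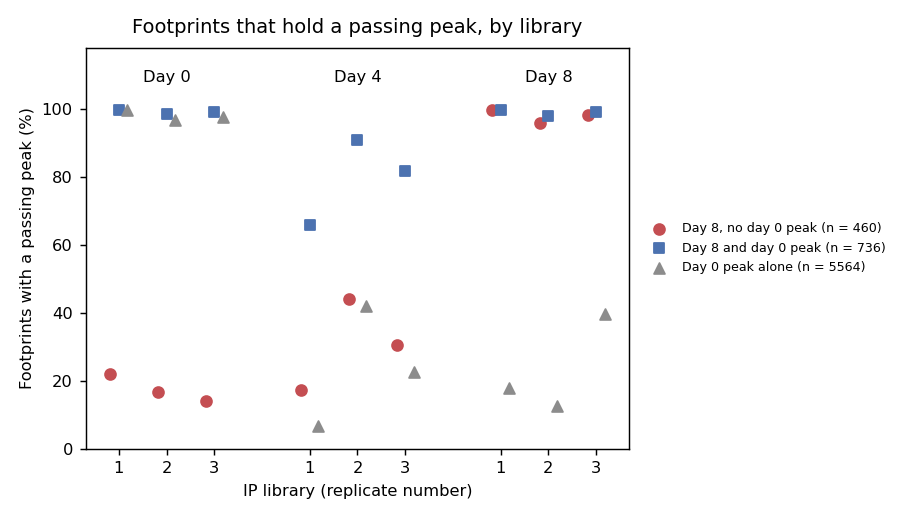
Share of footprints that held a passing peak (y axis, percent) in each of the 9 IP libraries (x axis), for the 460 day 8 footprints without a day 0 peak, the 736 shared footprints and the 5564 of day 0 alone. At day 4 the 460 lie at 17.2%, 43.9% and 30.7%, below shared footprints in each library and near the 17.0%, 49.2% and 32.0% of all footprints (not drawn).

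The 48 footprints with a day 4 peak passed in 46, 45 and 42 cases in the day 4 libraries, which made the merged list. Their merged day 4 fold was above the day 8 fold in 13 of 48. Of the 5 strongest, one on the minus strand of chromosome 5 (139396764 to 139396888) had day 4 log2 folds of 6.09, 9.07 and 6.66 beside 6.55, 6.01 and 6.39 at day 8, with weak day 0 clusters of 2.91 and 2.70 in replicates 1 and 2. The merged values were 7.25 at day 4 and 6.36 at day 8. One on the minus strand of chromosome X (11619613 to 11619740) had 4.02, 8.28 and 5.25 at day 4 and 6.50, 6.08 and 5.88 at day 8, so the days overlapped. Replicate 2 was the highest day 4 library in both.

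Among the 412 without a merged day 4 peak, 87 (21.1%) passed in at least 2 of 3 day 4 libraries. The share was 20.8% for footprints of day 0 alone, which also lack a merged day 4 peak. It was 62.4% for the 335 shared footprints without a merged day 4 peak. Over all footprints, which include those with a merged day 4 peak, it was 30.7%. The 21.1% lay near the share of day 0 alone and below the others, and no result about the 412 is read from it. Of the 460, 159 had no passing peak before day 8, and 82 had no cluster of any fold in any of the 6 earlier libraries. The rule favours both counts through day 0, and their shares over all footprints were not taken, so nothing is read from them. The strongest of the 82 lay on the plus strand of chromosome 7 (99194307 to 99194400), with 7.91, 6.74 and 6.51 at day 8. The 175 with no day 0 cluster passed in 10.9%, 36.6% and 18.9% of cases in the 3 day 4 libraries, and the 285 with one in 21.1%, 48.4% and 37.9%. Over all footprints the shares were 17.0%, 49.2% and 32.0%, so the 175 lay below them in each library and the 285 on both sides. Passing in 3 of 3 day 8 and 0 of 3 day 4 libraries was met by 213 of the 460 (46.3%), beside 4.53% of all footprints, a share the choice of day 8 footprints itself raises.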

How the data were processed

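QKI eCLIP libraries of HUES6 at days 0, 4 and 8 were described from the deposited peak lists: 1 list per IP library (9 in all) and 1 merged list per day. Per the submitters' processing notes, STAR, cutadapt and SAMtools were used on the hg19 build, with no versions named. The peak caller and its settings are not given in the sources used here. Per the file headers, the merged lists hold peaks of at least 4-fold enrichment that passed a 3-way IDR comparison. The deposited log2 values are folds of IP over input, and the deposited −log10 p-values are capped at 400. The deposited score column, which takes 2 values in the authors' lists, was not used. The 9 inputs were not analysed here.

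Starts were written 1-based. Merged peaks were joined into footprints when they overlapped or touched on a strand, and footprints within 20 kb into loci. The 100 kb stretches were added after the data were seen. A library's value at a footprint is the highest authors' log2 fold of any overlapping cluster. Shares carry Wilson intervals, and the day 4 comparison used an exact sign-flip permutation test over libraries (Python 3.11.15, numpy 2.4.6, scipy 1.17.1, matplotlib 3.10.9). Joining into footprints, membership, day 4 shares and the sign-flip test were tested on simulated data. Loci, stretches and distances were not. The members, lists and rules were chosen with earlier results of these data known.

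Footprints were described singly by a rule: the 10 strongest at day 8 passing in 3 libraries, the 8 fullest loci, the 5 strongest with no earlier cluster, the 5 strongest with a day 4 peak, the 3 nearest to and 3 farthest from a day 0 peak, and the 5 with most day 0 signal, of which those that illustrate a group are printed. A part on named genes was not used, because no annotation of hg19 was used here; neither motifs nor sequences were examined for the same reason. Alternatives changed the joining distance, the strand, the thresholds, the loci and the libraries.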

Additional observations from a re-analysis of the deposited data

How the results depend on the processing

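The number of footprints, 460, was 296 without any passing day 0 peak, 175 without any day 0 cluster, and 760 when counted as day 8 peaks lacking a reciprocal overlap of 50% with a day 0 peak. Joining within 50 or 100 nt, ignoring the strand and requiring 8-fold peaks gave 373 to 460. The share passing in 3 of 3 day 8 libraries, 95.2%, was 82.2% at a log2 fold of at least 3 and 95.4% to 97.8% when a day 8 library was left out. The share with no passing day 0 peak, 64.3%, was 69.8% at a log2 fold of at least 3, 38.0% for clusters of any fold, and 68.5% to 75.2% when a day 0 library was left out. Leaving a library out can only keep or raise either share, so the direction of these changes was fixed in advance. The share in the 10 fullest loci, 19.6%, was 16.7% with loci joined within 5 kb and 23.9% within 50 kb.

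The day 4 difference of -48.9 points against shared footprints was -49.9 to -47.9 when a day 4 library was left out (exact p = 0.5, the smallest for 2 libraries), and -33.0 among footprints without a merged day 4 peak. It was reversed, 6.80, against footprints of day 0 alone; the cause was not tested. That comparison, joining without day 4 peaks, the one among footprints without a day 4 peak, and the removal of the fullest stretch were chosen after seeing the data. Of the alternatives, 22 kept their value within the set limits, 10 moved and 1 reversed. No paired analysis was possible because no test compared days, so replicate numbers shared between days entered no fit; the day 4 test itself used differences within each library. The motif and annotation alternatives were not run, since a genome of hg19 was not used here. Depth is unknown, and lists differ in length between libraries.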

Other observations

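The mitochondrial genome held 3 of the 460 footprints among its 26 footprints of any day. The one at 12286 to 12333 had log2 folds of 0.86, 0.70 and 1.84 at day 0, 2.65, 2.42 and 1.57 at day 4 and 5.17, 3.71 and 4.81 at day 8. Each day 8 library was above each earlier library there, and a day 0 peak lay 16 nt away. The other 2, at 619 to 645 and 888 to 915, had merged day 8 log2 folds of 2.11 and 2.04, near the fold that the merged lists require, and their day 0 and day 8 values overlapped.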
